A study of Drosophila melanogaster with 23 samples.

Results

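The Pdf neurons of the adult Drosophila melanogaster brain were set against the adult eye, the other adult tissue with a clock in this series. The arrays were chosen by their titles: 3 arrays of large Pdf cells and 2 arrays of small Pdf cells, pooled as 5 adult Pdf arrays, and 3 arrays of eyes, which makes 8 of the 23 arrays of the series. The study compared gene expression of circadian neurons, of general neurons and of the eye in larvae and adults. The larval arrays and 3 arrays of adult Elav cells, which are general neurons, entered the model as further groups. Age and sex of the flies are not given in the labels.

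Large and small Pdf cells were GFP-positive cells of the Pdf-Gal4;UAS-GFP line, in which the Pdf-Gal4 driver turns on the green fluorescent protein and were sorted by hand from dissociated adult brains as large or small cells. Eyes were dissected from adult heads. The protocol text, which speaks of dissociation and GFP-positive cells, is the same for every sample, but the eye labels name no cell type, driver or genotype, so the eye arrays were read as whole tissue. Adult Elav cells were GFP-positive brain cells of the Elav-Gal4;UAS-GFP line. All groups lived in 12 h light and 12 h dark, were collected at about Zeitgeber time 12, the hour of lights-off, and gave RNA that was amplified with T7 polymerase before labelling. Tissue, sorting, dissociation and possibly genotype thus differ together between Pdf cells and eyes, and their shares in a difference cannot be told apart. In bulk RNA, fewer cells of a type and less RNA per cell cannot be told apart either.

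In flies the circadian clock is a loop of transcription in which the proteins of Clk and cyc switch on per and tim, whose products later repress Clk and cyc. The genes vri and Pdp1 form an interlocked loop that controls Clk, cwo encodes a further repressor, and cry encodes a blue-light receptor that resets the clock through tim. Pdf neurons run this loop in the brain and release the peptide PDF, which keeps clock neurons in step and reaches them through the receptor Pdfr. The eye is a light-sensing organ whose photoreceptors carry a clock of their own. It also holds pigment, cone and lens cells, glia and blood cells.

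All values are log2 GCRMA values, so a difference of 1 is a change of 2-fold. A value of 5 was used as the limit of detection. A gene counted as called where limma gave a Benjamini-Hochberg adjusted p under 0.05 and the groups differed at least 2-fold. Of 11983 genes, 7671 (64.0%) lay above 5 on at least 2 of the 23 arrays and were tested, and 4312 were not. Of the genes tested, 45.0% were called between Pdf cells and eyes, 2069 (27.0%) higher and 1380 (18.0%) lower in Pdf cells. The 5 Pdf arrays did not overlap with the 3 eye arrays for 3161 genes (41.2%), and lay above them for 1765 of these and below for 1396. The median log2 difference over all genes tested was 0.33. Counts of a gene list are given below with their share of its tested members, to be read beside 27.0% called higher and 18.0% called lower over all genes, and a share near these says nothing particular of a list. Members that passed the filter mostly through 1 side can hardly be called the other way, so the direction of such counts was nearly fixed in advance.

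Both Pdf groups gave a similar number of calls against the same 3 eye arrays. In large Pdf cells 42.3% of genes were called, 1890 (24.6%) higher and 1356 (17.7%) lower. In small Pdf cells 37.1% were called, 1683 (21.9%) higher and 1164 (15.2%) lower. Calls in the same direction in the pooled comparison and in both Pdf groups numbered 1224 rises (16.0%) and 1019 falls (13.3%). The direct test of large against small Pdf cells called 278 genes (3.62%), 131 (1.71%) higher and 147 (1.92%) lower in large cells. Array pairs correlated across the genes tested at r = 0.894 to 0.931 among large Pdf arrays, 0.916 between the small Pdf arrays and 0.923 to 0.958 among eyes. Large with small Pdf arrays gave 0.863 to 0.89, and Pdf with eye arrays 0.544 to 0.649. These are correlations across genes, which are not independent replicates. The labels call the arrays biological replicates without saying whether flies were shared; p-values here cover array-to-array spread alone, which may be partly technical.

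The labels were checked with the genes that define the cells. Pdf, which encodes the peptide of these neurons, stood at 15.6, 14.7 and 15.76 in large Pdf cells and 15.57 and 15.49 in small Pdf cells, against 3.02, 3.08 and 3.06 in eyes. The neurons thus held at least 1373-fold more of it (log2 difference 12.37 ± 0.447, SE; adjusted p = 3.3e-14, limma). The photoreceptor genes trp, which encodes the light-gated cation channel, and chp, which encodes the membrane protein chaoptin, marked the eyes. trp stood at 2.82, 2.73 and 2.87 in large Pdf cells and 2.8 and 2.74 in small Pdf cells, against 14.77, 14.47 and 14.39 in eyes. chp lay at 5.21, 2.46 and 2.58 in large Pdf cells and 2.14 and 2.74 in small Pdf cells, against 13.45, 12.59 and 14.3 in eyes. Large Pdf replicate 1 was thus the single Pdf array above 5 for chp, and its value stayed far below the eyes. The pan-neuronal gene elav, which brain neurons and photoreceptors both express, stood at 12.29 ± 0.251 in Pdf cells and 12.22 ± 0.649 in eyes (SD, n = 5 and 3), and nSyb, which encodes a synaptic vesicle protein, at 12.98 ± 0.3 in Pdf cells and 12.18 ± 0.501 in eyes. Neither was called (adjusted p = 0.942 and 0.466, limma).

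At about lights-off, the only hour sampled, the core clock genes were present on both sides and mostly higher in Pdf cells. Of the 8 genes of the loop, all tested, 5 (62.5%) rose in Pdf cells (cry, per, cwo, tim and vri), against the 27.0% of all genes tested that were called higher, none fell, and Clk, cyc and Pdp1 were not called. Their median log2 difference was 1.82, against 0.33 over all genes tested. Each of the 8 lay above 5 on every eye array, and 7 or 8 did on each Pdf array. Whether the tissues differ in the level of these genes over the whole day, or in its timing, was not tested. A clock gene that was not called at this hour was not shown to be level at other hours.

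The repressor genes came with these values. per stood at 11.82, 12.99 and 11.17 in large Pdf cells and 12.31 and 11.32 in small Pdf cells, against 9.46, 8.31 and 9.14 in eyes. All Pdf arrays lay above all eye arrays, and per was 7.75-fold higher (log2 difference 2.95 ± 0.642, SE; adjusted p = 0.000907, limma). tim stood at 13.9, 14.13 and 14.18 in large Pdf cells and 14.96 and 14.93 in small Pdf cells, against 12.54, 11.91 and 12.87 in eyes. The groups did not overlap, and tim was 3.95-fold higher (log2 difference 1.98 ± 0.472, adjusted p = 0.00196). This size holds for the probe set with the highest mean: the other tim probe set averaged 10.54 in Pdf cells and 3.03 in eyes, a difference of 7.51 in the same direction, so the size depends on the probe set. cwo, at 12.83, 13.62 and 12.89 in large Pdf cells and 14.22 and 13.9 in small Pdf cells, against 10.88, 10.58 and 11.37 in eyes, was 5.86-fold higher (log2 difference 2.55 ± 0.526, adjusted p = 0.000563). The small Pdf arrays were the highest for tim and cwo, but the difference between large and small cells did not pass the test for either (adjusted p = 0.546 and 0.563).

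The light receptor gene cry stood at 12.67, 11.57 and 12.58 in large Pdf cells and 12.65 and 12.41 in small Pdf cells, against 9.73, 8.81 and 9.63 in eyes. cry was 7.92-fold higher (log2 difference 2.99 ± 0.922, adjusted p = 0.0123). Without eye replicate 2, the eye with the lowest cry, the difference was 2.69 and its adjusted p 0.0617. vri, at 14.19, 14.69 and 14.3 in large Pdf cells and 15.02 and 14.76 in small Pdf cells, against 12.94, 12.79 and 13.38 in eyes, was 2.94-fold higher (log2 difference 1.56 ± 0.515, adjusted p = 0.0186), and its call was lost without eye replicate 1 (1.51, adjusted p = 0.0571) or eye replicate 2 (1.43, adjusted p = 0.0735). Without eye replicate 2 the count of core clock genes that rose was 3 of 8, and without eye replicate 3 it was 6.

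The activator genes were not called. Clk stood at 8.21, 4.72 and 5.73 in large Pdf cells and 9.6 and 9.6 in small Pdf cells, against 8.64, 5.51 and 6.78 in eyes. The large Pdf and eye arrays overlapped over most of their range, and both small Pdf arrays lay above every eye array. The pooled log2 difference was 0.59 ± 0.943 (adjusted p = 0.652), and large and small Pdf cells did not differ by the test (log2 difference -3.38 ± 1.18, adjusted p = 0.131). cyc stood at 8.25, 8.9 and 8.19 in large Pdf cells and 8.52 and 8.35 in small Pdf cells, against 7.69, 5.02 and 7.62 in eyes. All 5 Pdf arrays were above all 3 eyes, yet the difference of 1.67 ± 0.692 missed the threshold (adjusted p = 0.0563), with eye replicate 2 far below the other eyes. Without eye replicate 1 it passed (2.12, adjusted p = 0.0402), as it did without eye replicate 3 (2.09, adjusted p = 0.0427). Pdp1 was nearly level, at 13.01 ± 0.609 in Pdf cells and 13.13 ± 0.122 in eyes (SD, n = 5 and 3), with a log2 difference of -0.13 ± 0.445 (adjusted p = 0.857).

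**Figure D1:**
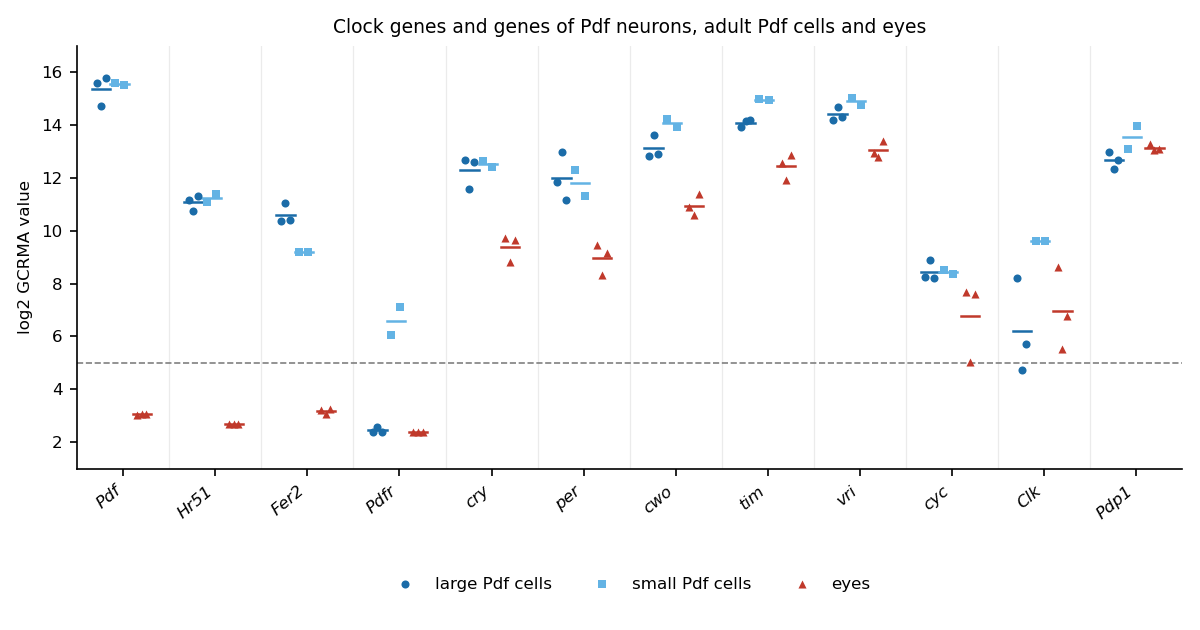
Log2 GCRMA values (vertical axis) of 4 genes known from Pdf neurons and the 8 core clock genes on 3 arrays of large Pdf cells (dark circles), 2 of small Pdf cells (light squares) and 3 of eyes (triangles). Horizontal bars are group means and the dashed line is the detection limit of 5. Pdf, Hr51 and Fer2 lie below 5 on every eye array, whereas the 8 clock genes lie above 5 on every eye array.

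Genes for kinases, phosphatases and turnover factors of the clock proteins had a median near that of all genes, 0.31. Of 18 tested, 6 (33.3%) rose (dco, nej, slmb, tyf, gw and ctrip) and 5 (27.8%) fell (tws, Fbxl4, Usp8, Cul1 and flw). With the mean over the probe sets of each gene the rises numbered 4, without nej (0.97, adjusted p = 0.102) and ctrip (0.81, adjusted p = 0.0667). Without eye replicate 1 slmb lost its call (1.54, adjusted p = 0.0548), and without eye replicate 3 Fbxl4 did (-2.2, adjusted p = 0.0528). The gene dco, which encodes the kinase Doubletime that phosphorylates PER, ranged over 10.31 to 10.88 in Pdf cells and 8.8 to 9.93 in eyes (log2 difference 1.19 ± 0.338, adjusted p = 0.00729), and lost its call without eye replicate 2 (0.88, adjusted p = 0.0673). tyf, whose product promotes PER translation, ranged over 11.1 to 12.36 in Pdf cells and 8.88 to 9.82 in eyes and was 4.31-fold higher (adjusted p = 0.00311). ctrip, a ubiquitin ligase gene known to act on CLK, ranged over 10.34 to 11.87 in Pdf cells and 8.19 to 9.17 in eyes and was 4.93-fold higher (adjusted p = 0.000196). tws, a regulatory subunit gene of the phosphatase PP2A, stood at 8.44, 9.53 and 9.41 in large Pdf cells and 9.3 and 10.84 in small Pdf cells, against 12.76, 12.6 and 12.51 in eyes. tws was 8.7-fold lower in Pdf cells (log2 difference -3.12 ± 0.433, adjusted p = 8.85e-06), with no overlap.

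The lists share some members, so their counts are not independent. Factors and output genes known from clock neurons showed 14 rises (63.6%) and 3 falls (13.6%) among 22 tested, with a median of 2.32. Hr51, which encodes a nuclear receptor needed by Pdf neurons, stood at 11.17, 10.75 and 11.29 in large Pdf cells and 11.07 and 11.39 in small Pdf cells, against 2.68, 2.69 and 2.68 in eyes. Every eye array lay below the detection limit, and Hr51 was at least 70.2-fold higher (log2 difference 8.45 ± 0.732, adjusted p = 1.72e-08). Fer2, a helix-loop-helix factor gene needed for Pdf neurons to form, stood at 10.37, 11.03 and 10.41 in large Pdf cells and 9.2 and 9.21 in small Pdf cells, against 3.22, 3.08 and 3.27 in eyes. Fer2 was at least 33.1-fold higher (log2 difference 6.86 ± 0.591, adjusted p = 1.59e-08). Lim1, a homeobox gene, stood at 13.39, 13.28 and 13.98 in large Pdf cells and 12.07 and 8.33 in small Pdf cells, against 9.91, 8.77 and 7.89 in eyes, and small Pdf replicate 2 lay within the range of the eyes.

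The PDF receptor gene differed between the Pdf groups. Pdfr stood at 2.37, 2.58 and 2.38 in large Pdf cells and 6.07 and 7.11 in small Pdf cells, against 2.37, 2.39 and 2.38 in eyes. It lay above 5 on both small Pdf arrays and on no large Pdf or eye array. Large minus small was -4.15 ± 0.555 (SE; adjusted p = 0.000168, limma), and the pooled rise over eyes (log2 difference 1.72 ± 0.444, adjusted p = 0.0036) was lost without small Pdf replicate 2 (0.97, adjusted p = 0.0925). With values under 5 raised to 5 neither was called (large minus small -1.59, adjusted p = 0.108; pooled 0.64, adjusted p = 0.24). The peptide gene sNPF, named here after its values were seen, showed the same split, at 4.29, 5.92 and 3.74 in large Pdf cells and 8.89 and 9.36 in small Pdf cells, against 4.72, 4.48 and 4.66 in eyes. Its large minus small difference was -4.47 ± 0.643 (adjusted p = 0.000354), and its pooled rise over eyes was lost without small Pdf replicate 1 (1.21, adjusted p = 0.0836) or 2 (1.09, adjusted p = 0.114).

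Falling members of that list were ITP, pros and ort. ITP, which encodes an ion transport peptide made by some clock neurons, stood at 3.27, 3.75 and 3.54 in large Pdf cells and 4.8 and 7.12 in small Pdf cells, against 10.44, 9.86 and 9.94 in eyes. ITP was at least 25.2-fold lower in Pdf cells (log2 difference -5.59 ± 0.865, adjusted p = 3.15e-05), and small Pdf replicate 2 was the single Pdf array above 5. pros, a homeobox factor gene that acts in cone cells and some photoreceptors, ranged over 2.29 to 6.88 in Pdf cells and 8.94 to 11.78 in eyes and fell (log2 difference -5.59 ± 0.977, adjusted p = 0.000113). ort encodes the histamine receptor of the cells below the photoreceptors and is described with histamine.

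Of 27 neuropeptide genes tested, 10 (37.0%) rose and 4 (14.8%) fell in Pdf cells, and their median was 0. The rises numbered 7 without eye replicate 2, eye replicate 3 or either small Pdf replicate, and 7 with the Pdf arrays fitted as 1 group. NPF, which encodes neuropeptide F, stood at 12.13, 9.06 and 12.39 in large Pdf cells and 10.81 and 8.78 in small Pdf cells, against 6.78, 2.45 and 2.49 in eyes. All Pdf arrays were above all eyes, and NPF was at least 32.9-fold higher (log2 difference 6.73 ± 0.825, adjusted p = 2.01e-06). Nplp1, a peptide precursor gene, stood at 11.52, 12.09 and 11.64 in large Pdf cells and 10.32 and 9.47 in small Pdf cells, against 6.64, 3.64 and 3.57 in eyes. Nplp1 was at least 44-fold higher (log2 difference 6.39 ± 0.853, adjusted p = 5.55e-06). Eye replicate 1 was the single eye array above 5 for both genes. Gpb5, which encodes a subunit of a glycoprotein hormone, stood at 12.7, 10.97 and 12.41 in large Pdf cells and 10.92 and 10.64 in small Pdf cells, against 5.31, 4.6 and 4.11 in eyes and was at least 86-fold higher (log2 difference 6.86 ± 0.907, adjusted p = 5.07e-06).

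Other peptide genes that rose were uneven among the Pdf arrays. Dh31, a diuretic hormone gene, stood at 10.86, 8.27 and 3.19 in large Pdf cells and 13.48 and 13.9 in small Pdf cells, against 8.64, 4.58 and 3.47 in eyes. Both small Pdf arrays were high and large Pdf replicate 3 was below 5. The pooled difference of 4.38 ± 1.55 (adjusted p = 0.0263) was lost without eye replicate 2 (3.88, adjusted p = 0.108), eye replicate 3 (3.33, adjusted p = 0.142), small Pdf replicate 1 (3.49, adjusted p = 0.0983) or small Pdf replicate 2 (3.39, adjusted p = 0.106). Dh44, at 6.85, 5.39 and 8.7 in large Pdf cells and 9.98 and 9.9 in small Pdf cells, against 5.93, 3.51 and 3.82 in eyes, was at least 7.23-fold higher (log2 difference 3.75 ± 0.901, adjusted p = 0.0021).

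The 4 peptide genes that fell were Nplp2, Nplp3, ITP, given above, and CCHa2, a peptide gene of gut and brain, which ranged over 3.77 to 6.59 in Pdf cells and 10.75 to 12.53 in eyes. Nplp2, an abundant precursor gene of the adult head, stood at 3.9, 3.78 and 7.69 in large Pdf cells and 3.86 and 6.96 in small Pdf cells, against 14.61, 15.11 and 14.81 in eyes. Nplp2 was at least 481-fold lower in Pdf cells (log2 difference -9.6 ± 1.56, adjusted p = 5.37e-05), and large Pdf replicate 3 and small Pdf replicate 2 were above 5. Nplp3 stood at 2.65, 2.63 and 2.65 in large Pdf cells and 2.62 and 2.66 in small Pdf cells, against 9.01, 9.92 and 10.17 in eyes. No Pdf array reached the detection limit, and Nplp3 was at least 26-fold lower (log2 difference -7.06 ± 0.323, adjusted p = 1.07e-12).

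Genes that process and release peptides were higher in Pdf cells: 9 of 14 tested (64.3%) rose, none fell, and the median was 2.62. amon, which encodes the prohormone convertase that cuts peptide precursors, stood at 14.38, 14.5 and 14.68 in large Pdf cells and 13.67 and 13.12 in small Pdf cells, against 10.48, 8.77 and 9.84 in eyes. amon was 20.8-fold higher with no overlap (log2 difference 4.38 ± 0.867, adjusted p = 0.000387). Phm, which encodes an enzyme that amidates peptides, ranged over 12.87 to 14.33 in Pdf cells and 10.93 to 11.55 in eyes and was 5.45-fold higher (adjusted p = 0.000182). Among vesicle sensors, Syt7 ranged over 11.58 to 12.47 in Pdf cells and 5.32 to 8.28 in eyes and was 33-fold higher (adjusted p = 9.86e-06), and Sytbeta over 7.15 to 8.65 in Pdf cells and 2.29 to 2.31 in eyes and was at least 9.07-fold higher (adjusted p = 6.9e-08). 7B2, whose product helps prohormone convertases mature in other animals, ranged over 15.19 to 15.79 in Pdf cells and 11.52 to 12.72 in eyes without overlap. Its call (log2 difference 3.44 ± 1.24, adjusted p = 0.0285) was lost without eye replicate 1 (3.73, adjusted p = 0.0511), eye replicate 2 (3.13, adjusted p = 0.106) or eye replicate 3 (3.47, adjusted p = 0.0674).

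Neuropeptide receptor genes rose in 6 of 12 tested (50.0%), with none lower and a median of 1.7. Dh31-R, the gene of the DH31 receptor, stood at 11.78, 12.28 and 11.94 in large Pdf cells and 12.05 and 12.44 in small Pdf cells, against 3.47, 3.81 and 3.79 in eyes. Dh31-R was at least 137-fold higher (log2 difference 8.41 ± 0.659, adjusted p = 4.28e-09), and no eye array reached 5. NPFR, the gene of the neuropeptide F receptor, stood at 10.43, 10.76 and 9.01 in large Pdf cells and 11.32 and 10.82 in small Pdf cells, against 5.34, 3.69 and 3.79 in eyes and was at least 40.9-fold higher (log2 difference 6.19 ± 1.02, adjusted p = 5.84e-05). TkR86C, a tachykinin-related receptor gene, stood at 9.28, 9.22 and 8.6 in large Pdf cells and 9.69 and 10.12 in small Pdf cells, against 3.67, 3.28 and 3.28 in eyes and was at least 20.8-fold higher (log2 difference 5.97 ± 0.471, adjusted p = 4.56e-09). NPF and its receptor gene were thus both high on all 5 Pdf arrays, while Dh31 was uneven beside an even Dh31-R. SIFaR, the gene of the SIFamide receptor, stood at 10.56, 10.72 and 10.56 in large Pdf cells and 8.56 and 5.96 in small Pdf cells, against 5.12, 5.44 and 3.9 in eyes. It rose over eyes (log2 difference 4.45 ± 0.634, adjusted p = 1.21e-05) and was higher in large than in small Pdf cells (3.35 ± 0.793, adjusted p = 0.0205). The last difference was lost without small Pdf replicate 2 (2.05, adjusted p = 0.304).

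**Figure D2:**
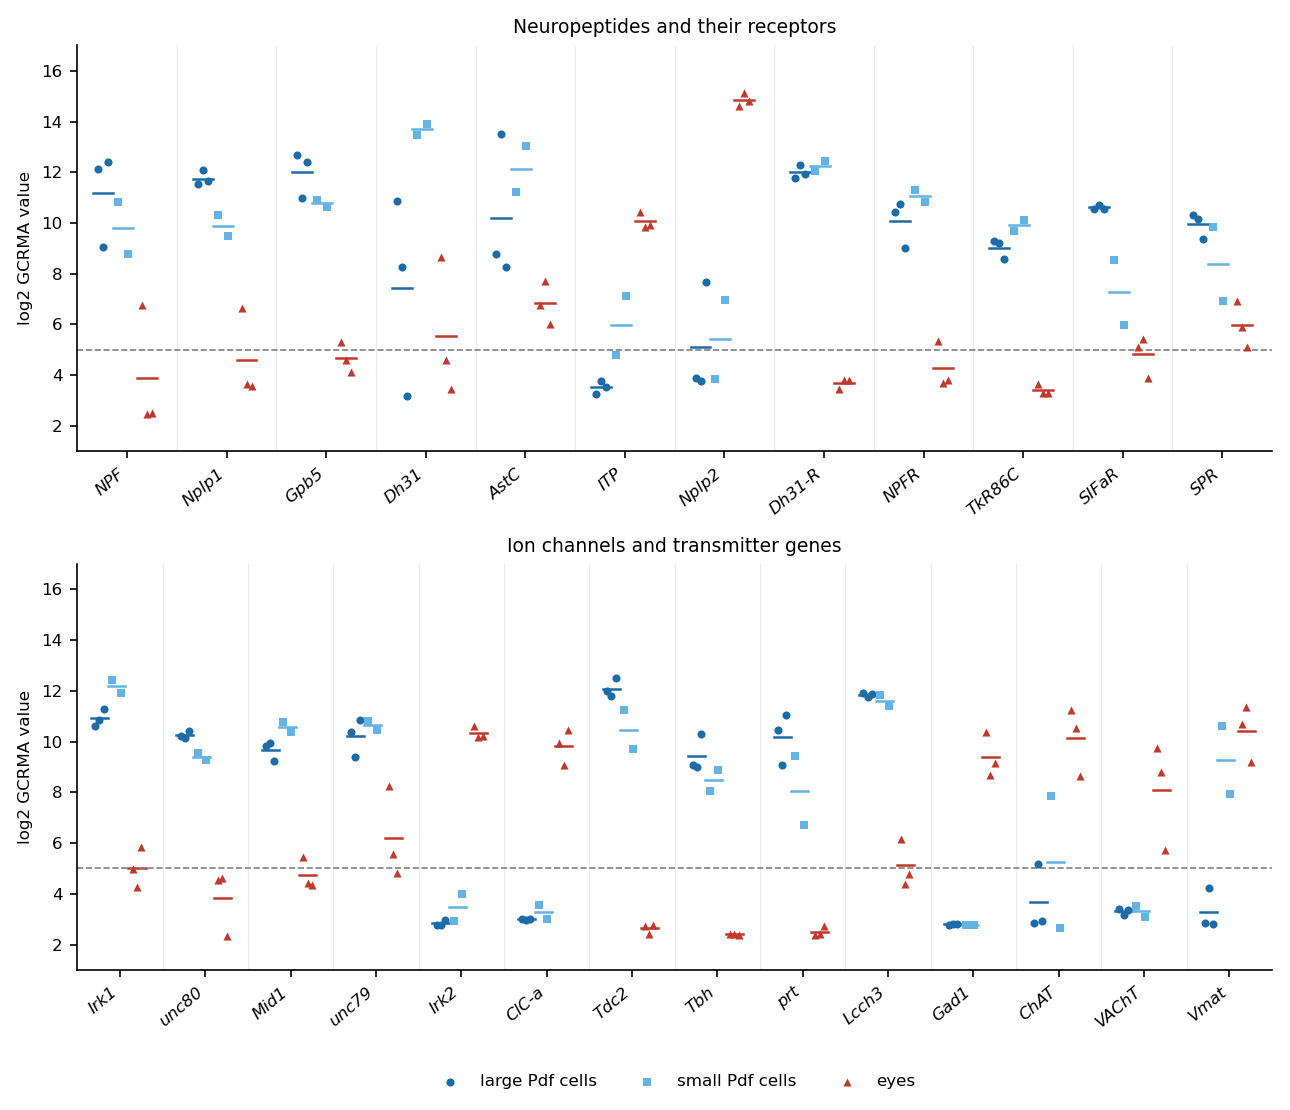
Log2 GCRMA values (vertical axis) of 12 neuropeptide and receptor genes (top) and 14 ion channel and transmitter genes (bottom) on 3 arrays of large Pdf cells (dark circles), 2 of small Pdf cells (light squares) and 3 of eyes (triangles). Bars are group means and the dashed line is the detection limit of 5. Dh31-R, TkR86C, unc80, Tdc2, Tbh and prt lie below 5 on all 3 eyes, and Irk2, ClC-a, Gad1 and VAChT below 5 on all 5 Pdf arrays.

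Genes of voltage-gated, potassium and leak channels, which set the firing of neurons, rose in 13 of 30 tested (43.3%) and fell in 4 (13.3%), with a median of 1.29. The rises included all 4 genes listed for the sodium leak channel, which depolarises clock neurons: na for the channel itself and unc79, unc80 and Mid1 for its partners. Rises of the whole list numbered 9 with values under 5 raised to 5, and 10 without eye replicate 2 or eye replicate 3. unc80, a subunit gene of the channel complex, stood at 10.22, 10.15 and 10.42 in large Pdf cells and 9.54 and 9.27 in small Pdf cells, against 4.53, 4.61 and 2.34 in eyes. unc80 was at least 30.3-fold higher (log2 difference 6.09 ± 0.607, adjusted p = 1.21e-07). Mid1, also called Nlf-1, a gene needed to bring the channel to the membrane, stood at 9.83, 9.95 and 9.22 in large Pdf cells and 10.79 and 10.39 in small Pdf cells, against 5.45, 4.43 and 4.36 in eyes and was at least 29.6-fold higher (log2 difference 5.29 ± 0.612, adjusted p = 9.48e-07). unc79, the other subunit gene, ranged over 9.39 to 10.87 in Pdf cells and 4.81 to 8.26 in eyes and was at least 17.2-fold higher (adjusted p = 0.000368). The channel gene na stood at 6.14, 2.31 and 4.71 in large Pdf cells and 7.14 and 5.34 in small Pdf cells, against 2.31, 2.32 and 2.29 in eyes, and large Pdf replicates 2 and 3 did not reach 5 (log2 difference 2.82 ± 0.755, adjusted p = 0.00477). With values under 5 raised to 5, na was not called (0.73, adjusted p = 0.145).

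The inward rectifier potassium channel genes moved in opposite directions. Irk1 stood at 10.61, 10.85 and 11.3 in large Pdf cells and 12.42 and 11.93 in small Pdf cells, against 4.96, 4.26 and 5.86 in eyes. Irk1 was at least 70.3-fold higher (log2 difference 6.4 ± 0.712, adjusted p = 5.59e-07). Irk2 stood at 2.77, 2.77 and 2.96 in large Pdf cells and 2.93 and 3.99 in small Pdf cells, against 10.6, 10.17 and 10.22 in eyes, and was at least 40.3-fold lower (log2 difference -7.25 ± 0.813, adjusted p = 6.14e-07). Neither gene's groups overlapped. ClC-a, a chloride channel gene with known expression in glia, stood at 3.01, 2.98 and 3.0 in large Pdf cells and 3.56 and 2.99 in small Pdf cells, against 9.95, 9.08 and 10.44 in eyes, and was at least 28.3-fold lower (log2 difference -6.71 ± 0.526, adjusted p = 4.27e-09). The genes of the Shaker channel, Sh, and of its beta subunit, Hk, were not called (log2 differences -0.6 ± 0.489 and -0.01 ± 0.815).

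Genes of amine and fast transmitter synthesis gave 6 rises and 6 falls among 16 tested (37.5% each) and a median of 0.31. The rises included the genes of octopamine synthesis. Tdc2, which encodes the neuronal tyrosine decarboxylase, stood at 11.98, 11.79 and 12.51 in large Pdf cells and 11.23 and 9.7 in small Pdf cells, against 2.74, 2.4 and 2.76 in eyes. Tdc2 was at least 86.9-fold higher (log2 difference 8.81 ± 0.742, adjusted p = 1.16e-08). Tbh, which encodes the next enzyme of that path, stood at 9.06, 8.99 and 10.3 in large Pdf cells and 8.07 and 8.9 in small Pdf cells, against 2.42, 2.41 and 2.38 in eyes, and was at least 16.7-fold higher (log2 difference 6.66 ± 0.471, adjusted p = 9.13e-10). prt, a vesicular transporter gene related to that of the monoamine transporter, stood at 10.44, 9.09 and 11.04 in large Pdf cells and 9.42 and 6.7 in small Pdf cells, against 2.36, 2.42 and 2.74 in eyes, and was at least 20.2-fold higher (log2 difference 6.83 ± 0.763, adjusted p = 5.87e-07). No eye array reached 5 for any of the 3.

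The falls were Gad1, ChAT, ChT, VAChT, Hdc and Vmat, while VGAT, the gene of the vesicular GABA carrier, ranged over 3.38 to 7.35 in Pdf cells and 2.9 to 3.44 in eyes and rose (log2 difference 2.63 ± 0.619, adjusted p = 0.00175). ChT, a choline transporter gene, lost its call without eye replicate 1 (-2.82, adjusted p = 0.0723), eye replicate 3 (-2.94, adjusted p = 0.0611) or large Pdf replicate 3 (-2.7, adjusted p = 0.0523). Gad1, which encodes the enzyme that makes GABA, stood at 2.76, 2.8 and 2.81 in large Pdf cells and 2.77 and 2.75 in small Pdf cells, against 10.37, 8.68 and 9.15 in eyes. ChAT, the acetylcholine synthesis gene, stood at 2.86, 5.18 and 2.93 in large Pdf cells and 7.87 and 2.65 in small Pdf cells, against 11.24, 10.54 and 8.64 in eyes. VAChT, the gene of its vesicular carrier, stood at 3.39, 3.18 and 3.38 in large Pdf cells and 3.53 and 3.1 in small Pdf cells, against 9.76, 8.81 and 5.74 in eyes. All 3 fell (log2 differences -6.62 ± 1.24, -5.84 ± 1.19 and -4.79 ± 0.793, adjusted p = 0.000236, 0.000505 and 6.51e-05), and ChAT was above 5 on large Pdf replicate 2 and small Pdf replicate 1. Photoreceptors are known to use histamine as their transmitter, and which cells of the eye samples carried the transcripts of these 3 genes was not tested. Vmat, the gene of the vesicular monoamine carrier, stood at 2.84, 4.23 and 2.81 in large Pdf cells and 10.6 and 7.95 in small Pdf cells, against 10.71, 11.36 and 9.18 in eyes. It fell against eyes in large Pdf cells and was lower in large than in small Pdf cells (large minus small -5.98 ± 1.16, adjusted p = 0.00515; without small Pdf replicate 1 it was -4.65, adjusted p = 0.102).

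Receptors for fast transmitters rose in 7 of 18 genes tested (38.9%) and fell in 3 (16.7%), with a median of 0.86. With values under 5 raised to 5 the falls numbered 1. Lcch3, a gene of a GABA-gated channel subunit, stood at 11.91, 11.76 and 11.89 in large Pdf cells and 11.83 and 11.41 in small Pdf cells, against 6.16, 4.4 and 4.79 in eyes. Lcch3 was at least 83-fold higher (log2 difference 6.65 ± 0.836, adjusted p = 2.73e-06). The nicotinic receptor gene nAChRalpha2 stood at 9.76, 8.32 and 9.96 in large Pdf cells and 9.86 and 9.23 in small Pdf cells, against 5.23, 3.27 and 2.79 in eyes, and was at least 20.4-fold higher (log2 difference 5.66 ± 0.802, adjusted p = 1.14e-05). Rdl, the gene of the main GABA-gated chloride channel, was not called (11.61 ± 0.663 in Pdf cells and 10.67 ± 1.11 in eyes, SD, n = 5 and 3; adjusted p = 0.58). Amine and metabotropic receptors gave 3 rises (25.0%) and 1 fall (8.33%) among 12, no more than over all genes. After quantile normalisation more genes passed the filter, with 5 rises among 14, while the genes tested before still gave 3 rises and 1 fall. Octbeta1R, an octopamine receptor gene, stood at 13.33, 12.85 and 12.9 in large Pdf cells and 11.68 and 8.35 in small Pdf cells, against 8.46, 6.78 and 4.14 in eyes and rose (log2 difference 5.36 ± 0.975, adjusted p = 0.000171).

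In the cAMP and calcium pathways, through which PDF and DH31 receptors signal, 10 of 24 genes tested (41.7%) rose and 3 (12.5%) fell, with a median of 1.24. The rises numbered 7 after quantile normalisation or without eye replicate 2. Pka-R1, which encodes a regulatory subunit of protein kinase A, stood at 12.96, 12.71 and 12.83 in large Pdf cells and 11.74 and 10.77 in small Pdf cells, against 6.96, 6.05 and 7.31 in eyes. Pka-R1 was 42.9-fold higher (log2 difference 5.42 ± 0.572, adjusted p = 2.71e-07). Ac78C, an adenylyl cyclase gene, stood at 9.61, 9.95 and 10.46 in large Pdf cells and 11.56 and 11.49 in small Pdf cells, against 5.35, 5.41 and 6.12 in eyes and was 31.7-fold higher (log2 difference 4.99 ± 0.886, adjusted p = 0.000134). Galphai, the gene of an inhibitory G protein subunit, stood at 2.85, 2.78 and 2.88 in large Pdf cells and 2.77 and 6.26 in small Pdf cells, against 8.88, 8.71 and 9.42 in eyes, and fell (log2 difference -5.49 ± 1.08, adjusted p = 0.00037), with small Pdf replicate 2 the single Pdf array above 5. Pde1c, a phosphodiesterase gene, ranged over 5.14 to 8.26 in Pdf cells and 10.58 to 11.12 in eyes and was 17.8-fold lower (adjusted p = 5.48e-05). Galphas, the gene of the stimulatory subunit that raises cAMP, ranged over 11.31 to 12.42 in Pdf cells and 10.34 to 10.7 in eyes and was 2.47-fold higher (adjusted p = 0.00169), a difference that fell under 2-fold after quantile normalisation (0.87, adjusted p = 0.0331).

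Synaptic and pan-neuronal genes were mostly not called. Of 22 tested, 5 rose, none fell and 17 were not called, a share of rises of 22.7% beside 27.0% over all genes, with a median of 0.74. The median value of the list per array was 11.12 to 11.83 in Pdf cells and 10.74 to 11.2 in eyes. Rbp, a gene of an active zone scaffold, had the largest rise of the list, at 10.78, 11.06 and 10.89 in large Pdf cells and 11.56 and 10.09 in small Pdf cells, against 6.16, 4.65 and 5.21 in eyes (log2 difference 5.54 ± 0.46, adjusted p = 9.8e-09). Genes of axon guidance and adhesion gave 13 rises (48.1%) and 4 falls (14.8%) among 27, with a median of 1.12. unc-5, the gene of a netrin receptor, ranged over 11.9 to 12.56 in Pdf cells and 6.17 to 7.17 in eyes and was 40-fold higher (adjusted p = 1.39e-09). Nlg2, a neuroligin gene, ranged over 11.59 to 13.02 in Pdf cells and 5.0 to 8.21 in eyes and was at least 69.7-fold higher (adjusted p = 9.82e-06), and its groups did not overlap either. The number of guidance genes that fell dropped to 0 without eye replicate 1, 1 without eye replicate 2, and 2 without large Pdf replicate 1 or large Pdf replicate 2.

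The falls in Pdf cells included the light-sensing machinery of the eye, and its genes Arr1 and Arr2 had the largest falls shared by both Pdf groups. As a list it did not lead, since the fat body and retinoid lists had lower medians, -7.75 and -5.84. In photoreceptors, light-activated rhodopsin switches on a G protein and phospholipase C, which opens the TRP and TRPL channels, and arrestins then shut rhodopsin off. Of 23 genes of this cascade tested, 15 (65.2%) fell, 1 rose and 7 were not called, with a median of -4.06. All 23 were above 5 on each eye array, and 11 to 13 were on each Pdf array.

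The arrestin genes had the lowest differences of the cascade. Arr1 stood at 2.26, 2.24 and 2.25 in large Pdf cells and 2.24 and 2.24 in small Pdf cells, against 14.74, 14.6 and 14.94 in eyes. Arr1 was at least 867-fold lower in Pdf cells (log2 difference -12.51 ± 0.442, adjusted p = 2.48e-14). Arr2 stood at 2.35, 2.34 and 2.37 in large Pdf cells and 2.33 and 2.32 in small Pdf cells, against 14.54, 14.14 and 15.04 in eyes, and was at least 761-fold lower (log2 difference -12.23 ± 0.416, adjusted p = 1.59e-14). All Pdf arrays were near the bottom of the scale and all eyes near its top. The channel gene trp, given above, was at least 746-fold lower (log2 difference -11.75 ± 0.416, adjusted p = 2.48e-14). trpl, the gene of its partner channel, ranged over 2.37 to 2.43 in Pdf cells and 11.96 to 13.22 in eyes and was at least 221-fold lower (adjusted p = 7.25e-15).

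Genes that organise the cascade fell too. inaD, whose product is the scaffold that holds the channel and its partners, ranged over 2.17 to 2.2 in Pdf cells and 11.51 to 12.52 in eyes and was at least 141-fold lower (adjusted p = 3.22e-13). inaC, the gene of the eye's protein kinase C, ranged over 2.44 to 2.46 in Pdf cells and 10.91 to 13.19 in eyes and was at least 116-fold lower (adjusted p = 2.59e-13). Gbeta76C, the gene of the eye's G protein beta subunit, ranged over 2.23 to 2.4 in Pdf cells and 11.04 to 12.7 in eyes and was at least 113-fold lower (adjusted p = 9.04e-15). The last 2 genes lay outside the naming rule and were chosen after their values were seen. Among the genes of the cascade that were not called was Cds, which encodes an enzyme of phosphoinositide recycling, at 12.83 ± 0.375 in Pdf cells and 12.33 ± 1.12 in eyes (SD, n = 5 and 3).

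Galphaq, the gene of the G protein alpha subunit below rhodopsin, was the exception, and its probe sets went opposite ways. The probe set with the highest mean stood at 11.21, 11.72 and 11.51 in large Pdf cells and 11.86 and 12.17 in small Pdf cells, against 9.09, 8.8 and 8.85 in eyes, which is 6.87-fold higher (log2 difference 2.78 ± 0.33, adjusted p = 1.3e-06). The other probe sets of the gene averaged 8.47 in Pdf cells and 9.58 in eyes, a difference of -1.11, and 3.06 in Pdf cells and 12.81 in eyes, a difference of -9.75. The mean over its probe sets fell by 2.69 (adjusted p = 2.5e-07), so no direction is given for the gene as a whole.

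Genes of rhodopsin maturation and of the retinoid that rhodopsin carries fell in 7 of 8 tested (87.5%), with a median of -5.84. All 8 lay above 5 on each eye array and 1 to 3 on each Pdf array, so the direction of this count was nearly fixed in advance. Pdh, which encodes the photoreceptor dehydrogenase of pigment cells, stood at 2.25, 2.23 and 2.24 in large Pdf cells and 2.27 and 2.23 in small Pdf cells, against 13.51, 13.2 and 14.47 in eyes. Pdh was at least 424-fold lower (log2 difference -11.49 ± 0.668, adjusted p = 4.83e-11). rdhB, a retinol dehydrogenase gene, ranged over 2.27 to 2.31 in Pdf cells and 10.7 to 11.72 in eyes and was at least 82.8-fold lower (adjusted p = 7.25e-15). santa-maria and ninaB, which encode a carotenoid receptor and the enzyme that cleaves carotenoid, ranged over 2.18 to 4.26 in Pdf cells and 9.71 to 10.62 in eyes, and over 2.28 to 5.79 in Pdf cells and 8.73 to 10.95 in eyes. Both fell (log2 differences -7.56 ± 0.658 and -6.59 ± 0.589, adjusted p = 1.82e-08 and 2.68e-08).

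Developmental factors of the eye were mostly lower in Pdf cells: 17 of 24 tested (70.8%) fell and 1 rose, with a median of -2.28. The rise was gone without eye replicate 3 or large Pdf replicate 2, and the falls numbered 12 without eye replicate 1 or with values under 5 raised to 5. oc, also known as otd, a homeobox gene that controls rhodopsin genes, stood at 3.94, 4.27 and 4.16 in large Pdf cells and 4.18 and 4.15 in small Pdf cells, against 11.63, 11.47 and 10.62 in eyes. oc was at least 75.5-fold lower (log2 difference -7.1 ± 0.868, adjusted p = 1.95e-06). gl, the photoreceptor zinc finger gene glass, stood at 4.02, 3.99 and 4.04 in large Pdf cells and 4.1 and 3.89 in small Pdf cells, against 10.71, 9.85 and 11.73 in eyes and was at least 54.3-fold lower (log2 difference -6.75 ± 0.915, adjusted p = 6.66e-06). eya, a gene of the retinal determination network, ranged over 3.66 to 4.38 in Pdf cells and 10.21 to 10.86 in eyes and was at least 47.8-fold lower (adjusted p = 1.11e-09). Its partner so stood at 3.04, 8.48 and 3.1 in large Pdf cells and 3.06 and 3.06 in small Pdf cells, against 6.32, 6.16 and 7.56 in eyes. It fell as well (log2 difference -2.53 ± 0.911, adjusted p = 0.0291), although large Pdf replicate 2 lay above every eye array. The call was lost without any 1 eye replicate or either small Pdf replicate, with differences of -2.79 to -2.09 and adjusted p of 0.0508 to 0.124. Not called were 2 further members of that network, ey (4.23 ± 0.895 in Pdf cells and 5.5 ± 1.28 in eyes, SD, n = 5 and 3) and toy (12.7 ± 0.874 in Pdf cells and 11.52 ± 0.72 in eyes), and toy was high in both groups.

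Homeobox genes in general, which mark cell identity, gave 2 rises (5.56%) and 14 falls (38.9%) among 36 tested, with a median of -0.99, and 9 falls with values under 5 raised to 5. The rises were Lim1, given above, and ind, at 7.56, 7.46 and 7.01 in large Pdf cells and 6.7 and 6.62 in small Pdf cells, against 2.8, 2.81 and 2.81 in eyes (log2 difference 4.26 ± 0.645, adjusted p = 2.4e-05). zfh1, a zinc finger homeobox gene, stood at 4.11, 3.6 and 3.38 in large Pdf cells and 3.36 and 3.11 in small Pdf cells, against 10.82, 11.67 and 10.55 in eyes, and was at least 64.7-fold lower (log2 difference -7.5 ± 1.29, adjusted p = 9.55e-05). Several of the falls, among them oc, so and Pph13, also stand in the list of eye developmental factors.

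**Figure D3:**
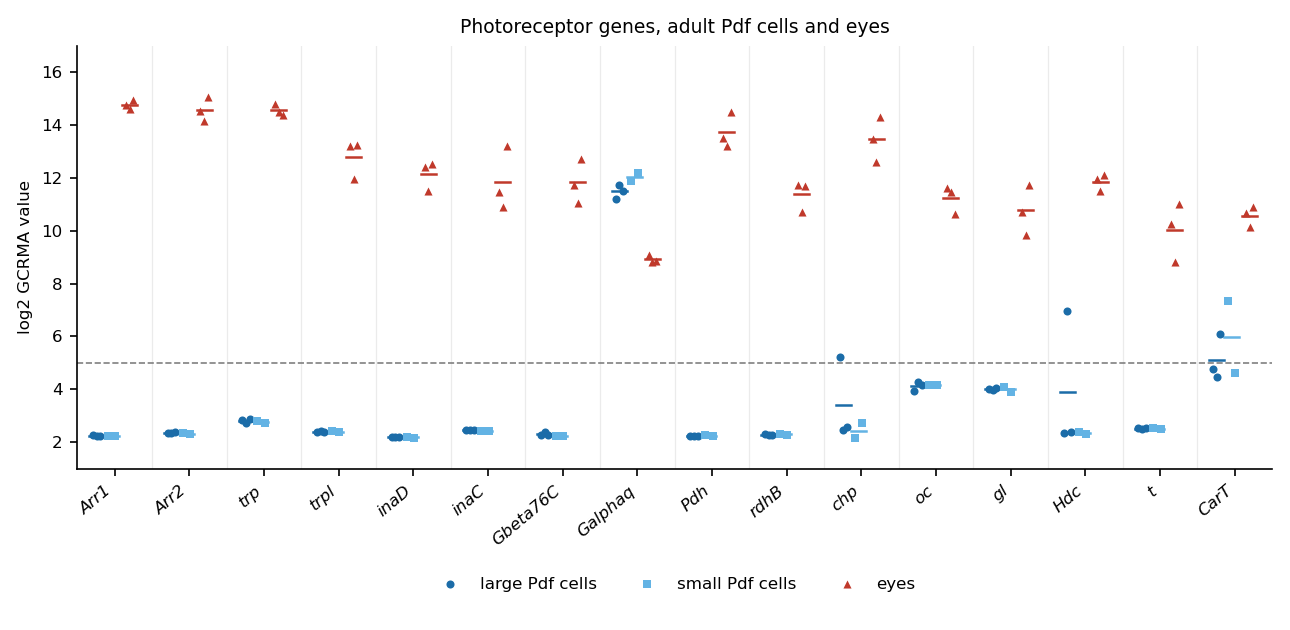
Log2 GCRMA values (vertical axis) of 16 genes of phototransduction, retinoid metabolism, photoreceptor structure and identity, and histamine on 3 arrays of large Pdf cells (dark circles), 2 of small Pdf cells (light squares) and 3 of eyes (triangles). Bars are group means and the dashed line is the detection limit of 5. Arr1, Arr2 and trp lie between 2 and 3 on every Pdf array and above 14 on every eye, while the Galphaq probe set shown is higher in Pdf cells.

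Histamine is the transmitter of photoreceptors. All 9 genes of its synthesis, recycling and reception that were tested fell in the pooled comparison, with a median of -4.73. Of these, 8 were called lower in both Pdf groups, and 1 was called lower in large than in small Pdf cells. Members above 5 numbered 0 to 2 on each Pdf array and 6 to 9 on each eye array. A fall was thus nearly fixed in advance for most of them. With values under 5 raised to 5, 7 of the 9 were called lower, and ort was among those that were not (-0.83, adjusted p = 0.0406). Hdc, the gene of the enzyme that makes histamine, stood at 2.36, 6.96 and 2.37 in large Pdf cells and 2.37 and 2.31 in small Pdf cells, against 11.95, 11.51 and 12.11 in eyes. Hdc was at least 88.5-fold lower (log2 difference -8.59 ± 1.36, adjusted p = 4.05e-05), with large Pdf replicate 2 the single Pdf array above 5. t, the gene tan, whose enzyme frees histamine from carcinine, stood at 2.52, 2.51 and 2.52 in large Pdf cells and 2.52 and 2.5 in small Pdf cells, against 10.26, 8.83 and 11 in eyes, and was at least 32.7-fold lower (log2 difference -7.52 ± 0.378, adjusted p = 4.66e-12). CarT, the carcinine transporter gene of photoreceptors, ranged over 4.47 to 7.32 in Pdf cells and 10.14 to 10.88 in eyes and was at least 29.4-fold lower (adjusted p = 2.97e-07).

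Within the histamine list the eyes themselves were uneven. The gene e, ebony, whose enzyme joins histamine to beta-alanine in lamina glia, stood at 2.39, 2.38 and 2.38 in large Pdf cells and 2.41 and 2.37 in small Pdf cells, against 9.26, 7.88 and 2.38 in eyes. Balat, a beta-alanine transporter gene, stood at 2.19, 2.19 and 2.17 in large Pdf cells and 2.18 and 2.81 in small Pdf cells, against 9.8, 9.06 and 2.22 in eyes. ort, the histamine receptor gene, stood at 2.62, 2.66 and 2.75 in large Pdf cells and 2.67 and 2.58 in small Pdf cells, against 7.11, 5.38 and 3.37 in eyes. Eye replicate 3 was undetected for all 3 genes and eye replicates 1 and 2 were above 5, while t, Hdc and CarT were high on all 3 eyes. Without eye replicate 3, all 9 genes of the list were still called lower. In a fit of the 8 arrays alone, e and Balat were not called (adjusted p = 0.0549 and 0.0557). VAChT, given above, was also lowest on eye replicate 3.

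Eye pigment genes did not follow the photoreceptor genes. Of 23 tested, 9 (39.1%) rose, 4 (17.4%) fell and 10 were not called, with a median of 0.83. The genes that fell were kar, se, which encodes an enzyme of the red drosopterin pigments, and the pigment transporter genes st and bw. st stood at 2.27, 2.25 and 2.29 in large Pdf cells and 2.29 and 2.25 in small Pdf cells, against 8.88, 8.24 and 9.53 in eyes, and was at least 14.7-fold lower (log2 difference -6.61 ± 0.321, adjusted p = 2.76e-12). bw stood at 3.58, 3.62 and 3.56 in large Pdf cells and 3.58 and 3.66 in small Pdf cells, against 9.69, 9.04 and 10.46 in eyes, and was at least 26.5-fold lower (log2 difference -6.13 ± 0.376, adjusted p = 1e-10). The genes that rose included members of the machinery of lysosome-related vesicles, which cells outside the eye also use. Of these, ca, car and dor ranged over 8.14 to 9.16 in Pdf cells and 6.33 to 6.84 in eyes, over 8.96 to 10.21 in Pdf cells and 6.26 to 7.7 in eyes, and over 6.36 to 8.18 in Pdf cells and 4.79 to 5.28 in eyes. Their log2 differences were 2.1 ± 0.44, 2.41 ± 0.654 and 2.2 ± 0.482 (adjusted p = 0.00065, 0.0052 and 0.000954).

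Rhabdomere genes, which build the light-catching membrane, fell in 4 of 8 tested (50.0%) and rose in 1, with a median of -1.87. The falls numbered 2 with the mean over probe sets, and the rise was gone without eye replicate 2, large Pdf replicate 3 or small Pdf replicate 1. crb, an apical membrane gene, stood at 3.52, 4.17 and 4.24 in large Pdf cells and 8.91 and 7.54 in small Pdf cells, against 11.18, 10.7 and 11.72 in eyes. It fell (log2 difference -5.52 ± 0.913, adjusted p = 6.4e-05), and large Pdf cells were lower than small ones (-4.25 ± 1.14, adjusted p = 0.0431). That difference between the Pdf groups was lost when any 1 of the 8 arrays was left out (adjusted p = 0.0554 to 0.288). Lens, cone, pigment cell and cuticle markers gave 2 rises (13.3%) and 5 falls (33.3%) among 15, with a median of -0.07, and 3 falls with values under 5 raised to 5. Cpr72Ec, a gene of a corneal lens protein, stood at 2.28, 2.24 and 2.27 in large Pdf cells and 2.27 and 2.24 in small Pdf cells, against 10.22, 8.0 and 11.24 in eyes, and was at least 28.2-fold lower (log2 difference -7.56 ± 0.457, adjusted p = 8.24e-11). A rise in that list was Cpr50Cb, a cuticle protein gene, at 8.81, 10.05 and 8.51 in large Pdf cells and 8.62 and 2.31 in small Pdf cells, against 2.2, 3.02 and 2.21 in eyes (log2 difference 5.19 ± 0.813, adjusted p = 3.61e-05), and small Pdf replicate 2 was undetected.

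Markers of other cell types moved with the falls. Glia markers gave 12 falls (75.0%) and no rise among 16 tested, and their summed level (log2) was 9.11 to 13.35 in Pdf cells and 13.65 to 13.83 in eyes. The defining glial gene repo stood at 6.11, 4.3 and 3.35 in large Pdf cells and 3.03 and 2.58 in small Pdf cells, against 8.8, 8.63 and 7.72 in eyes. Hemocyte markers gave 9 falls (69.2%) and 1 rise among 13 (sum 9.69 to 12.25 in Pdf cells, 13.46 to 14.07 in eyes), and Hml, a blood cell gene, stood at 2.36, 2.19 and 2.39 in large Pdf cells and 2.21 and 2.36 in small Pdf cells, against 6.81, 8.01 and 9.03 in eyes. Fat body markers gave 5 falls (71.4%) and 1 rise, Mtp, among 7 (sum 13.77 to 14.22 in Pdf cells, 15.84 to 16.75 in eyes). No rise was left without eye replicate 1, eye replicate 2 or large Pdf replicate 1, after quantile normalisation, or with the Pdf arrays fitted as 1 group. Muscle markers gave 8 falls (88.9%) and no rise among 9 (sum 6.83 to 7.73 in Pdf cells, 10.99 to 11.59 in eyes). Of 12 with a probe set these 9 passed the filter, with 7 to 9 above 5 on each eye array and 0 to 2 on each Pdf array. Their falls were thus nearly fixed in advance. Glia and hemocyte counts carry a similar limit. Of the glia markers, 11 to 13 lay above 5 on each eye array and 2 to 7 on each Pdf array. Of the hemocyte markers, 9 to 11 did on each eye array and 2 to 5 on each Pdf array.

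Of the fat body markers, Yp1, a yolk protein gene, stood at 7.05, 5.69 and 3.08 in large Pdf cells and 4.92 and 3.86 in small Pdf cells, against 14.62, 15.24 and 14.76 in eyes. Yp1 was at least 642-fold lower in Pdf cells (log2 difference -9.96 ± 0.84, adjusted p = 1.19e-08). Large Pdf replicates 1 and 2 were above 5, far under the eyes. The part of such cells in the genes that fell was not tested. Among hemocyte markers, Pxn, a peroxidase gene of basement membranes, ran the other way, at 12.14, 11.58 and 11.87 in large Pdf cells and 10.82 and 7.06 in small Pdf cells, against 6.3, 6.5 and 4.88 in eyes (log2 difference 4.8 ± 1.12, adjusted p = 0.00168).

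**Figure D4:**
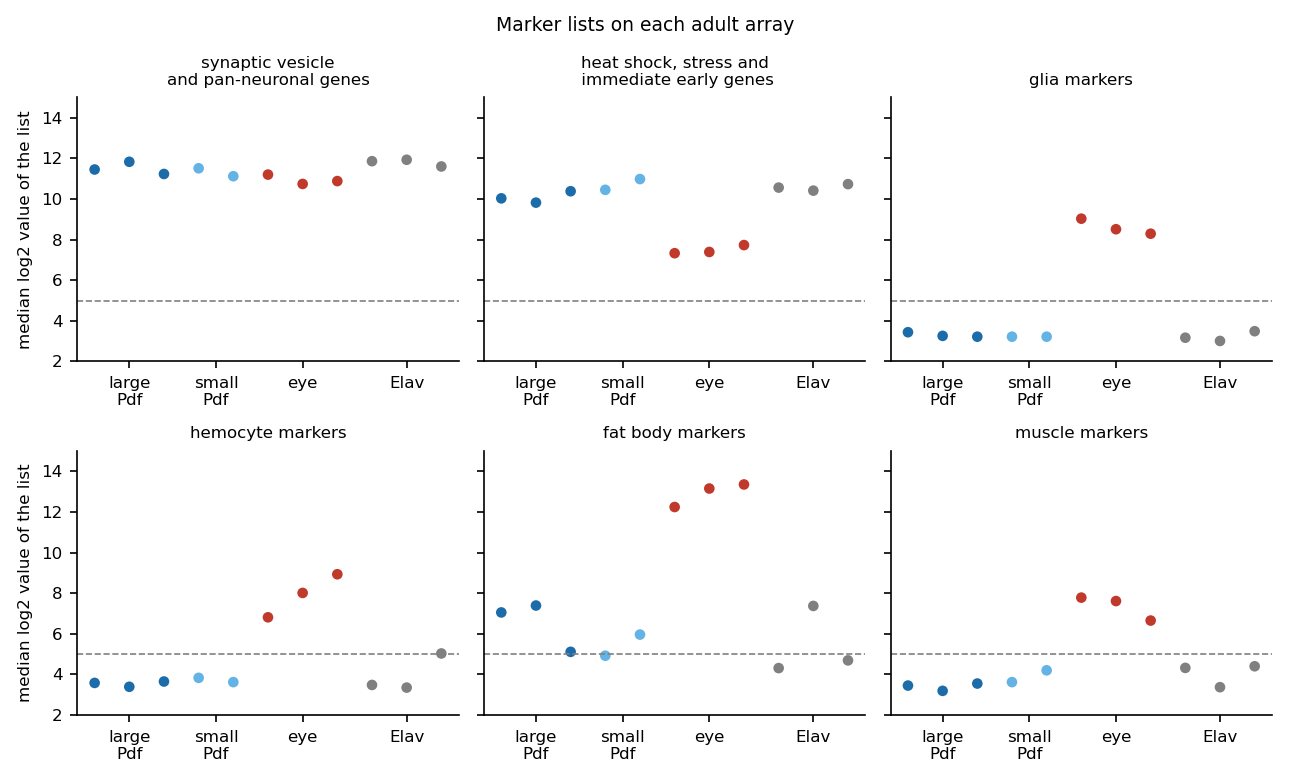
Median log2 GCRMA value (vertical axis) of 6 gene lists on each adult array: 3 large Pdf, 2 small Pdf, 3 eye and 3 Elav arrays, each point 1 array, with the detection limit of 5 dashed. Pan-neuronal medians are 11.12 to 11.83 in Pdf cells and 10.74 to 11.2 in eyes, whereas glia, hemocyte, fat body and muscle medians are above 6 on the eyes alone, apart from fat body medians up to 7.39 in Pdf cells and 7.37 in Elav cells.

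Heat shock and stress genes rose in 6 of 12 tested (50.0%), with none lower and a median of 1.1. Hsp26, a small heat shock protein gene, stood at 12.43, 12.3 and 13.03 in large Pdf cells and 10.59 and 12.65 in small Pdf cells, against 4.25, 4.29 and 6.64 in eyes. Hsp26 was at least 101-fold higher (log2 difference 7.14 ± 0.837, adjusted p = 1.14e-06). Hsp68 stood at 10.09, 9.49 and 10.99 in large Pdf cells and 9.65 and 10.99 in small Pdf cells, against 3.14, 3.25 and 3.43 in eyes, and was at least 37.9-fold higher (log2 difference 6.97 ± 0.853, adjusted p = 1.95e-06). Adult Elav cells, also sorted from dissociated brains, were high too, with Hsp26 at 13.4, 13 and 14.68 in adult Elav cells and Hsp68 at 11.54, 11.02 and 12.45 in adult Elav cells. The median of the list per array was 9.82 to 10.98 in Pdf cells, 10.41 to 10.73 in Elav cells and 7.33 to 7.73 in eyes. The part of sorting and dissociation in these genes was not tested. The immediate early genes Hr38 and sr, which follow neuronal activity, were not called (log2 differences 0.05 ± 0.901 and -0.44 ± 0.651), while Jra, which encodes the Jun factor, ranged over 9.11 to 10.43 in Pdf cells and 5.3 to 7.62 in eyes and rose (log2 difference 3.41 ± 0.82, adjusted p = 0.00209).

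Housekeeping lists lay near the median of all genes. Cytosolic ribosomal protein genes gave 6 rises (22.2%) and 1 fall (3.7%) among 27, with a median of 0.34, and oxidative phosphorylation genes 6 rises (15.8%) and 3 falls (7.89%) among 38, with a median of 0.1. After quantile normalisation the same lists gave 2 rises and 3 falls, and 1 rise and 6 falls. Without eye replicate 1 the ribosomal rises numbered 2, and without eye replicate 2 they numbered 1. Neuroblast and proliferation genes gave 4 rises (25.0%) and 3 falls (18.8%) among 16, shares near those of all genes, with a median of 0. Their rises numbered 2 without eye replicate 1, eye replicate 2, large Pdf replicate 1 or large Pdf replicate 2.

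**Figure D5:**
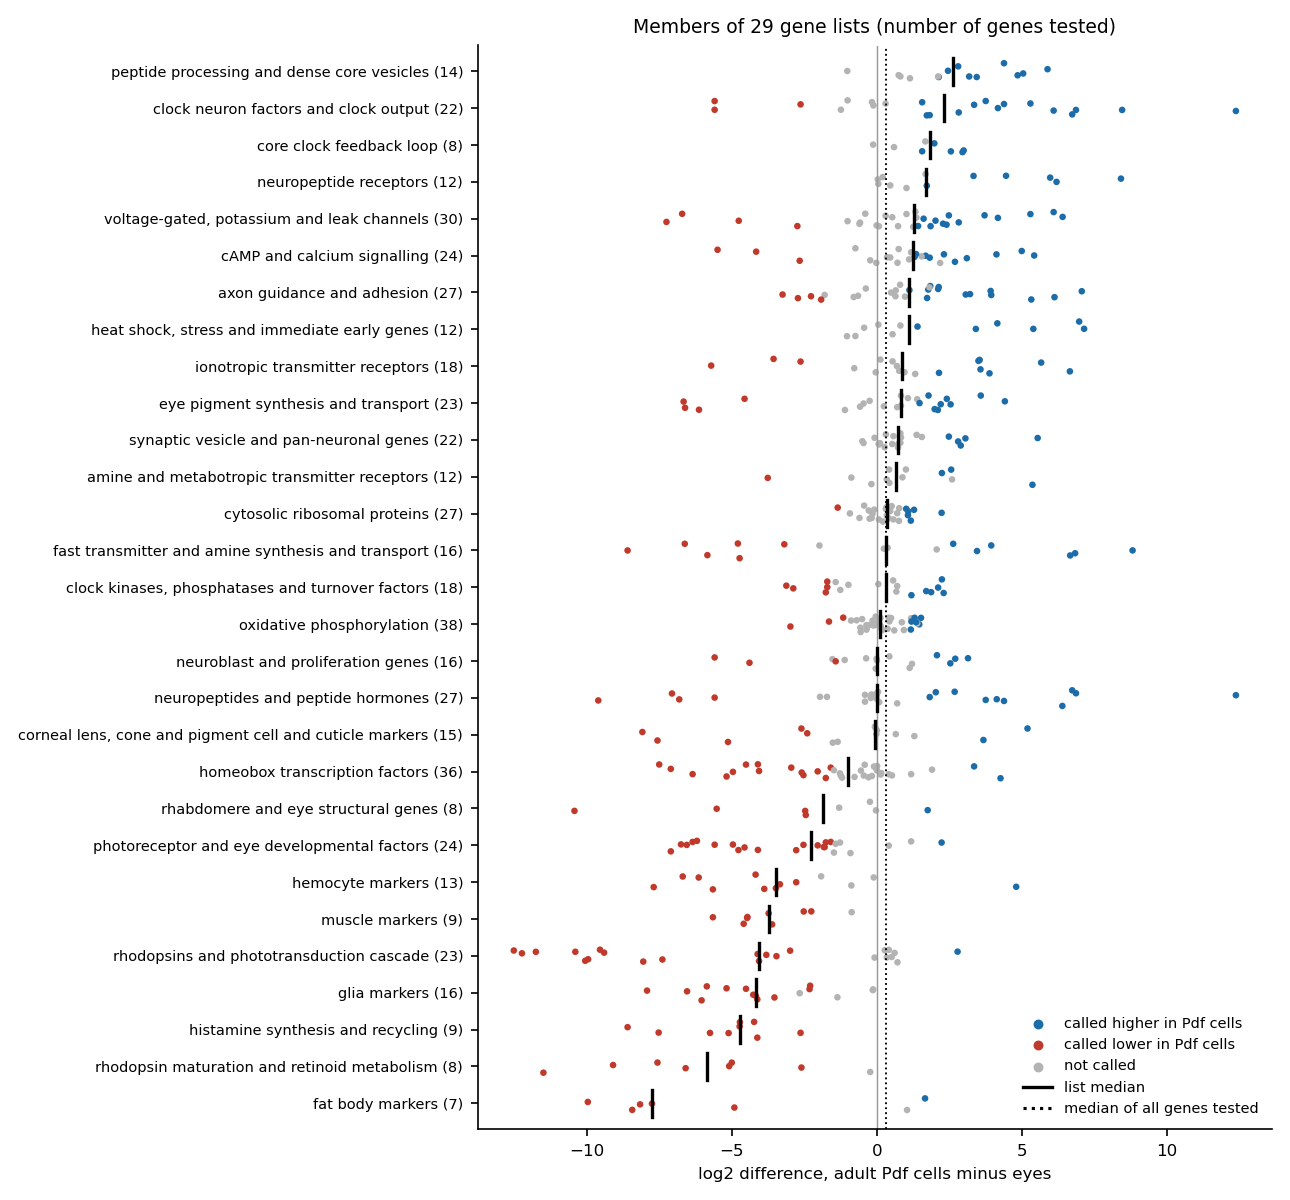
Log2 difference of adult Pdf cells minus eyes (horizontal axis) for each tested member of 29 gene lists, coloured by whether it was called higher, called lower or not called. Thick bars are list medians and the dotted line is the median of all genes tested, 0.33. Peptide processing, clock neuron and core clock lists have medians of 2.62, 2.32 and 1.82, and fat body, retinoid and histamine lists medians of -7.75, -5.84 and -4.73.

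Ranked over all genes, the largest rises over eyes shared by large and small Pdf cells were led by Pdf. A place in this ranking does not set a gene apart from other brain neurons. After it came MFS3, a gene of the major facilitator transporter superfamily, at 12.82, 12.89 and 13.15 in large Pdf cells and 12.91 and 12.83 in small Pdf cells, against 4.0, 5.16 and 5.49 in eyes. MFS3 was at least 209-fold higher (log2 difference 8.04 ± 0.468, adjusted p = 4.84e-11). CG13594, an uncharacterised gene, stood at 13.1, 13.22 and 13.14 in large Pdf cells and 13.09 and 13.12 in small Pdf cells, against 6.72, 5.59 and 5.41 in eyes, and was 150-fold higher (log2 difference 7.23 ± 0.514, adjusted p = 9.76e-10). The 5 Pdf arrays of both genes lay within a narrow range. PVRAP ranged over 12.3 to 13.45 in Pdf cells and 4.18 to 6.65 in eyes and was at least 145-fold higher (adjusted p = 3.57e-09).

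The next genes in rank included more genes of neurons and 5 without a name beyond their number. Fife, which encodes an active zone scaffold protein, ranged over 11.87 to 13.31 in Pdf cells and 4.47 to 6.97 in eyes and was at least 129-fold higher (adjusted p = 5.72e-07). fne, a gene of an RNA-binding protein of neurons, ranged over 12.19 to 13.36 in Pdf cells and 5.41 to 7.0 in eyes and was 110-fold higher (adjusted p = 4.53e-06). opa, a zinc finger factor gene, ranged over 11.12 to 12.62 in Pdf cells and 3.62 to 5.61 in eyes and was at least 106-fold higher (adjusted p = 2.84e-05). CG2269, CG1275, CG13248, CG13054 and CG14024 were uncharacterised genes, with log2 differences of 7.08, 7.01, 6.95, 8.65 and 7.66. Adult Elav cells were high too for CG2269 (14.34 to 14.74), CG1275 (14.05 to 14.46), CG13248 (13.06 to 13.63) and CG14024 (11.33 to 12.07). These rises are thus not particular to Pdf neurons. Elav cells were lower than Pdf cells for CG13594 (8.87 to 10.19) and CG13054 (5.8 to 8.78). CG13054 was below 5 on all eyes, at 11.29, 11.11 and 11.44 in large Pdf cells and 12.66 and 12.99 in small Pdf cells, against 3.29, 3.57 and 2.88 in eyes.

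The remaining genes of the rise ranking were CG4577, nord and beat-Ia, beside Dh31-R, Hsp26, Tdc2, Gpb5 and Lcch3, given above. beat-Ia, a gene of a guidance protein of axons, stood at 12.48, 12.2 and 12.46 in large Pdf cells and 11.2 and 9.46 in small Pdf cells, against 5.82, 3.92 and 3.76 in eyes, and was at least 78-fold higher (log2 difference 7.06 ± 0.718, adjusted p = 1.63e-07). nord ranged over 10.93 to 12.37 in Pdf cells and 3.12 to 5.88 in eyes and CG4577 over 14.22 to 15.3 in Pdf cells and 7.38 to 9.2 in eyes. Over all genes tested, 13 were at least 100-fold higher and 53 at least 100-fold lower in Pdf cells with values under 5 raised to 5. Of genes called higher, 417 were at or below 5 on all eyes, and of genes called lower, 737 were at or below 5 on all Pdf arrays.

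The ranking of falls held Arr1, Arr2, trp, trpl, Yp1, Nplp2, Pdh and chp, given above, and the genes that follow here. The immune-induced peptide genes BomS6 and BomS2 stood at 3.58 to 3.69 in Pdf cells and 13.03 to 14.46 in eyes, and at 4.4 to 5.34 in Pdf cells and 13.12 to 14.26 in eyes. BomS6 was at least 447-fold lower and BomS2 at least 443-fold lower (adjusted p = 1.48e-14 and 9.06e-13). Bbd and IM33, also genes of the immune response, had log2 differences of -10.56 ± 0.593 and -9.82 ± 0.657. The fat body, which is known to make such peptides, had its markers on the same eye arrays, and its part was not tested.

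Cpn, the gene of the photoreceptor calcium-binding protein calphotin, stood at 2.44, 2.26 and 2.29 in large Pdf cells and 2.44 and 2.29 in small Pdf cells, against 13.34, 12.54 and 13.11 in eyes. Cpn was at least 256-fold lower (log2 difference -10.65 ± 0.341, adjusted p = 9.04e-15). retinin, a gene of a corneal lens protein, stood at 2.14, 2.12 and 2.14 in large Pdf cells and 2.13 and 2.11 in small Pdf cells, against 12.99, 12.4 and 12.99 in eyes, and was at least 222-fold lower (log2 difference -10.67 ± 0.336, adjusted p = 9.04e-15). Pepck1, the gene of an enzyme that makes glucose precursors, ranged over 2.76 to 4.57 in Pdf cells and 13.34 to 13.8 in eyes and was at least 394-fold lower (adjusted p = 1.96e-05). AnxB9, an annexin gene, ranged over 2.97 to 3.94 in Pdf cells and 12.6 to 13.19 in eyes, and rtp, the gene of retinophilin, a photoreceptor protein that binds the myosin NINAC, over 2.71 to 6.3 in Pdf cells and 13.19 to 14.29 in eyes. pkm, CG13631 and CG6503 completed that ranking with log2 differences of -10.93 ± 0.287, -8.69 ± 0.665 and -10.24 ± 0.678.

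Large and small Pdf cells differed in 157 of the 3449 genes called between Pdf cells and eyes, so that pooling covers unlike levels there. Over all genes tested they differed in 278 of 7671 (3.62%), a similar share, so the count says nothing particular of the called genes. Scp2, a calcium-binding protein gene, stood at 4.45, 3.87 and 6.52 in large Pdf cells and 13.08 and 11.64 in small Pdf cells, against 11.94, 11.39 and 10.11 in eyes. The small Pdf arrays lay within or above the eye range and the large ones far below, and large minus small was -7.41 ± 1.27 (adjusted p = 0.00197). Arc1, a gene of a capsid-like protein that carries RNA between neurons, stood at 7.84, 7.59 and 9.18 in large Pdf cells and 15.29 and 14.73 in small Pdf cells, against 13.62, 13.72 and 14.88 in eyes, with the same pattern (large minus small -6.8 ± 1.12, adjusted p = 0.00137). The pooled falls of both genes depended on single arrays: without large Pdf replicate 1 the log2 differences were -2.37 and -2.38 (adjusted p = 0.0859 and 0.0522), and without large Pdf replicate 2 they were -2.22 and -2.31 (adjusted p = 0.0972 and 0.0546). Scp2 also lost its call without eye replicate 1 (-2.84, adjusted p = 0.0664) or eye replicate 2 (-3.11, adjusted p = 0.0517).

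Other genes were high in 1 Pdf group and lower in the other and in eyes. CG31675 stood at 3.93, 3.72 and 3.9 in large Pdf cells and 10.73 and 12.47 in small Pdf cells, against 4.65, 4.12 and 3.94 in eyes, with large minus small at -7.75 ± 1.02 (adjusted p = 0.000138). CG31183 stood at 4.29, 5.64 and 4.24 in large Pdf cells and 10.73 and 9.74 in small Pdf cells, against 4.66, 5.63 and 5.37 in eyes, with -5.52 ± 0.603 (adjusted p = 1.97e-05). On the large side, CG18467 stood at 9.82, 9.24 and 10.68 in large Pdf cells and 4.2 and 3.38 in small Pdf cells, against 3.62, 2.52 and 3.4 in eyes, with 6.13 ± 0.651 (adjusted p = 1.66e-05). lov, a gene of a BTB-domain factor, stood at 11.57, 12.07 and 11.78 in large Pdf cells and 8.97 and 5.79 in small Pdf cells, against 5.77, 4.11 and 4.29 in eyes, with 4.43 ± 0.93 (adjusted p = 0.00936), which was lost without small Pdf replicate 2 (2.84, adjusted p = 0.194). The pooled rise of CG31675 was lost without small Pdf replicate 1 (1.77, adjusted p = 0.0998) or 2 (1.33, adjusted p = 0.214), and that of CG31183 without small Pdf replicate 1 (0.76, adjusted p = 0.24) or 2 (1.0, adjusted p = 0.113).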

How the data were processed

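Of 23 one-colour Affymetrix arrays, 5 of adult Pdf cells and 3 of eyes were compared. The deposited table holds log2 values that the authors made with GCRMA, per the submitters' processing notes; for its version, settings and any later step, the notes give nothing. Of 18952 probe sets, 183 were controls, 13647 named 1 gene in the platform annotation, 402 named several and 4720 none. A total of 13544 symbols were updated through their identifiers with RefSeq's gene table. For 1094 genes with several probe sets, the one with the highest mean over all arrays was used. Genes above 5 on at least 2 of 23 arrays were tested.

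limma 3.58.1 (R 4.3.3) fitted 8 group means to the 23 arrays with lmFit and eBayes (two-sided). The Pdf mean weighted large cells by 0.6 and small cells by 0.4, which gives each array equal weight. p-values were adjusted by the Benjamini-Hochberg method over all 7671 genes, and a call needed an adjusted p under 0.05 and a 2-fold difference. Folds against a group with an array at or under 5 are given as "at least", with values under 5 raised to 5. The number of arrays limits the precision.

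Named genes were the core clock genes with Pdf, Pdfr and Fer2, the 20 largest rises and 20 largest falls called in both Pdf groups without overlap, up to 6 called members of each list and direction, and 5 genes per direction between large and small cells. Other genes given with values were chosen after their values were seen, as were list members that were not called. Lists and genes were chosen with earlier results of these data known. The test was checked on simulated arrays of this comparison, where it called nearly all of the largest changes, a good part of the middle ones and few of the smallest, so a gene that was not called may still differ. Same-numbered arrays of different groups deviated from their group means with r = -0.04 to 0.09 over 7 pairs, and different-numbered ones with -0.06 to 0.04 over 14. Large Pdf with eye arrays of the same number gave 0.03, 0.09 and 0.06, above the other pairs of these groups. These values do not settle whether arrays were paired. The numbers were not taken as pairs, and a fit with them as a block is given below. Alternatives changed the filter, floor, probe set choice, normalisation, arrays, weights and block. No sequences were used here.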

Additional observations from a re-analysis of the deposited data

Results flagged for a closer look

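In 12 of 164 genes given in the text, large and small Pdf cells differed by limma's test of large minus small, which is the difference of their contrasts with the same eyes. Over all genes tested, 278 of 7671 (3.62%) did. The genes of the text include some that were named because this same test called them, so the count of 12 is partly fixed by that choice. Large cells were lower by large minus small differences of -7.75 for CG31675, -7.41 for Scp2, -6.8 for Arc1, -5.98 for Vmat, -5.52 for CG31183, -4.47 for sNPF, -4.25 for crb and -4.15 for Pdfr. Large cells were higher by 6.13 for CG18467, 4.54 for Tsp42Eo (adjusted p = 0.0407), 4.43 for lov and 3.35 for SIFaR. Tsp42Eo was not called without small Pdf replicate 2 (1.34, adjusted p = 0.667), without large Pdf replicate 1 (4.36, adjusted p = 0.0865) or 3 (4.26, adjusted p = 0.107), or without any 1 eye replicate (4.54, adjusted p = 0.0545 to 0.0565).

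In 19 of the 164 genes, 1 of the 5 Pdf arrays lay apart from the other 4 by Dixon's ratio of gap to range, with values under 5 raised to 5 and a critical value of 0.71. For 5 unchanged values from 1 normal distribution, chance passes that value in about 5% of groups. Here values under 5 were raised to 5, which can itself set 1 array apart, and 2 cell types were pooled. The 5% therefore does not hold for these groups. Large Pdf replicate 2 was high for Hdc (ratio 1), rtp (1) and so (1), and low for Pdf (0.745) and cry (0.764). Large Pdf replicate 1 was high for chp (1) and repo (1), and large Pdf replicate 3 for MFS3 (0.727). Small Pdf replicate 1 was high for ChAT (0.937), ChT (0.792), ey (1) and BomS2 (0.794). Small Pdf replicate 2 was high for Galphai (1), ITP (1), ninaB (1) and Hr38 (0.808), and low for CG4577 (0.722), Pxn (0.74) and Sytbeta (0.74). A ratio of 1 here means that the other 4 arrays were all at or under 5.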

How the results depend on the processing

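The count of genes called between Pdf cells and eyes (3449) ranged over 2692 to 3484 when 1 array was left out, lowest without eye replicate 2, and was 3831 with array weights. Large Pdf cells gave 2606 to 3256 calls and small Pdf cells 1833 to 2948 with 1 array left out. The lowest value for small Pdf cells came without small Pdf replicate 1 (933 higher, 900 lower), which leaves 1 small array assumed to vary like the other groups. Large against small Pdf cells gave 196 to 292 calls with 1 array left out and 125 (51 higher, 74 lower) when the 8 arrays were fitted alone, a fit with fewer arrays for the spread. The share of calls that were higher was 60.0% as reported and 54.6% after quantile normalisation, which moved the median of all genes by -0.13. Testing every gene without a filter moved it by -0.31.

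With the replicate number as a block, 3406 genes were called (2039 higher, 1367 lower), and whether the numbers pair the arrays is not known. Over 5891 values of the genes named, 5650 kept their side of the threshold under the alternatives, and those called also kept their direction. Genes not called in either fit count among the 5650 whatever their direction. A call was lost in 235 values, spread over 60 of 255 called genes. Galphaq turned to -2.69 (adjusted p = 2.5e-07) with the mean over its probe sets, which differ in sign. Of 464 list medians under alternatives, 50 moved by more than the spread between Pdf arrays. Quantile normalisation turned the median of the clock kinase list to -0.08 and that of the oxidative phosphorylation list to -0.32. In these lists the cause was not tested. Depth does not apply to arrays, and values at or under 5 have no order.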

Other observations

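Gene families named by their symbols were chosen after their values were seen and are described by counts alone, beside the 27.0% of genes called higher and 18.0% called lower over all genes tested. Genes of detoxification enzymes gave more falls than rises. Of 52 cytochrome P450 genes tested, 3 rose and 34 fell, and of 28 glutathione transferase genes 1 rose and 16 fell. Of the 52, 38 to 42 lay above 5 on each eye array and 9 to 13 on each Pdf array. Of the 28, 23 or 24 did on each eye array and 6 to 11 on each Pdf array. GstE12 ranged over 2.8 to 3.63 in Pdf cells and 11.14 to 12.3 in eyes, and was at least 107-fold lower (adjusted p = 5.24e-10). Odorant-binding protein genes fell in 12 of 13, among them Obp44a, at 5.02, 4.93 and 6.64 in large Pdf cells and 4.91 and 7.87 in small Pdf cells, against 13.02, 14.14 and 11.94 in eyes. These 13 were the members that passed the filter, of 47 with a probe set. Of the 13, 11 to 13 lay above 5 on each eye array and 1 or 2 on each Pdf array. All 9 immune-induced peptide genes tested fell, of 12 with a probe set, and 0 to 2 of the 9 lay above 5 on each Pdf array against 9 on each eye. Members of all these families thus passed the filter mostly through the eyes. A fall was nearly fixed in advance for them, and nothing is drawn from these counts. Glia, hemocyte and fat body markers moved the same way on these arrays, and their part was not tested.

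Cell-surface recognition genes and traffic genes ran the other way. Of 17 dpr genes, whose products bind DIP proteins at synapses, 9 rose and none fell, and 4 of 7 DIP genes rose and none fell. dpr5 ranged over 6.67 to 10.79 in Pdf cells and 4.0 to 5.37 in eyes, and was at least 18.5-fold higher (adjusted p = 2.87e-06). Rab genes, which steer vesicles, gave 9 rises and 1 fall among 16. The fall was Rab32, a gene that acts in pigment granules, at 8.88, 6.64 and 10.15 in large Pdf cells and 10.88 and 10.28 in small Pdf cells, against 13.13, 12.5 and 13.32 in eyes. Vacuolar ATPase genes gave 7 rises and 2 falls among 19. VhaAC45 stood at 13.8, 13.7 and 14.03 in large Pdf cells and 14.04 and 14.09 in small Pdf cells, against 10.01, 9.18 and 11.01 in eyes, while Vha100-2 stood at 3.19, 3.71 and 3.9 in large Pdf cells and 3.58 and 3.17 in small Pdf cells, against 7.97, 8.62 and 9.28 in eyes. Proteasome genes gave 13 rises and no fall among 28, and 6 rises and 2 falls after quantile normalisation.

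Tetraspanin genes split within their family. Of 22 tetraspanin genes, 4 rose and 8 fell. Tsp42Eo stood at 10.41, 9.15 and 10.61 in large Pdf cells and 8.72 and 2.32 in small Pdf cells, against 2.31, 2.34 and 2.3 in eyes, and Tsp42Ea at 4.23, 3.88 and 4.41 in large Pdf cells and 3.08 and 3.45 in small Pdf cells, against 12.54, 11.36 and 12.99 in eyes.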
